A study of Zea mays with 72 samples.

Results

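PR-5 (NCBI Gene number 542720) and chitinase (542525) are the 2 genes of this account, taken by those numbers from a count table that held values for 32235 maize genes. Both passed the filter on low counts, which left 25558 genes to be tested. The samples were whole leaves of the inbred line B73, detached from young seedlings, stood in water and kept in clean airflow before treatment. Leaf 4 was mature, and its sheath had been removed. Leaves 5 and 6 were immature and had no such step, so leaf age and this handling cannot be told apart. Each leaf position had 4 groups of 6 biological replicates, which makes 12 groups and 72 libraries. The groups were HAC for 30 min, HAC for 2 h, ZmPep3 for 2 h and control. HAC is (Z)-3-hexenyl acetate, a volatile that damaged leaves release, and was given from a dispenser in the air. ZmPep3 is a maize plant elicitor peptide and was added to the water at about 1 µM. The labels do not say when the control leaves were frozen, and 1 control group per leaf served all 3 treatments of that leaf.

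Pathogenesis-related (PR) proteins are made by plants in response to infection and to many defence signals. PR-5 belongs to the thaumatin-like family, whose members include proteins that damage fungal membranes, and chitinases cut chitin, a polymer of fungal cell walls and insect cuticle. Plant elicitor peptides are fragments of plant proteins that act through receptors at the cell surface and switch on jasmonate- and ethylene-linked defence, while green leaf volatiles such as HAC are known mainly for preparing leaves to respond faster to later attack.

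The libraries held 26212015 to 31052269 counts, with a median of 29911688. PR-5 had at least 149 counts in a library and chitinase at least 259, and both were whole numbers in 72 of 72 libraries, although 11.09% of the values above 0 in the table were not whole (tolerance 1e-06). Genes of C4 leaf tissue were high in all 12 groups, among them phosphoenolpyruvate carboxylase (pep1), at group means of 2282 CPM or more. The ligule genes lg1 and lg2 had group means of at most 2.68 and 9.37 CPM, and KN-1, a meristem gene, did not pass the filter. Median correlations of each library with the rest of its group on log2 CPM ran from 0.945 to 0.978, with libraries 6 and 5 of the leaf 6 controls at the low end (0.945 and 0.947). Levels below are CPM, the share of a library's counts on a common scale, with library totals adjusted by TMM factors. A gene is called changed where edgeR's quasi-likelihood test gave a Benjamini-Hochberg adjusted p under 0.05 over all genes tested. In whole leaves, fewer cells of a type and less RNA per cell cannot be told apart.

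ZmPep3 raised both transcripts in all 3 leaves, and no treated library overlapped a control library of its leaf. Of all genes tested, 20.3%, 22.4% and 23.3% were called higher after ZmPep3 in leaves 4, 5 and 6. The share of all genes without such overlap was not counted, here or in the comparisons below. The rise of PR-5 was 4.40-fold for leaf 4, against 13.4-fold for leaf 5 and 26.3-fold for leaf 6. The rise of chitinase was 3.58-fold for leaf 4, against 15.7-fold for leaf 5 and 8.41-fold for leaf 6. HAC for 2 h raised PR-5 in leaf 6 by 4.12-fold, and raised chitinase in leaf 5 by 2.42-fold and in leaf 6 by 2.25-fold. After HAC for 2 h, 9.59% of all genes were called higher in leaf 5 and 13.9% in leaf 6. No call was made for either gene after HAC for 30 min, or in leaf 4 after HAC for 2 h.

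**Figure D1:**
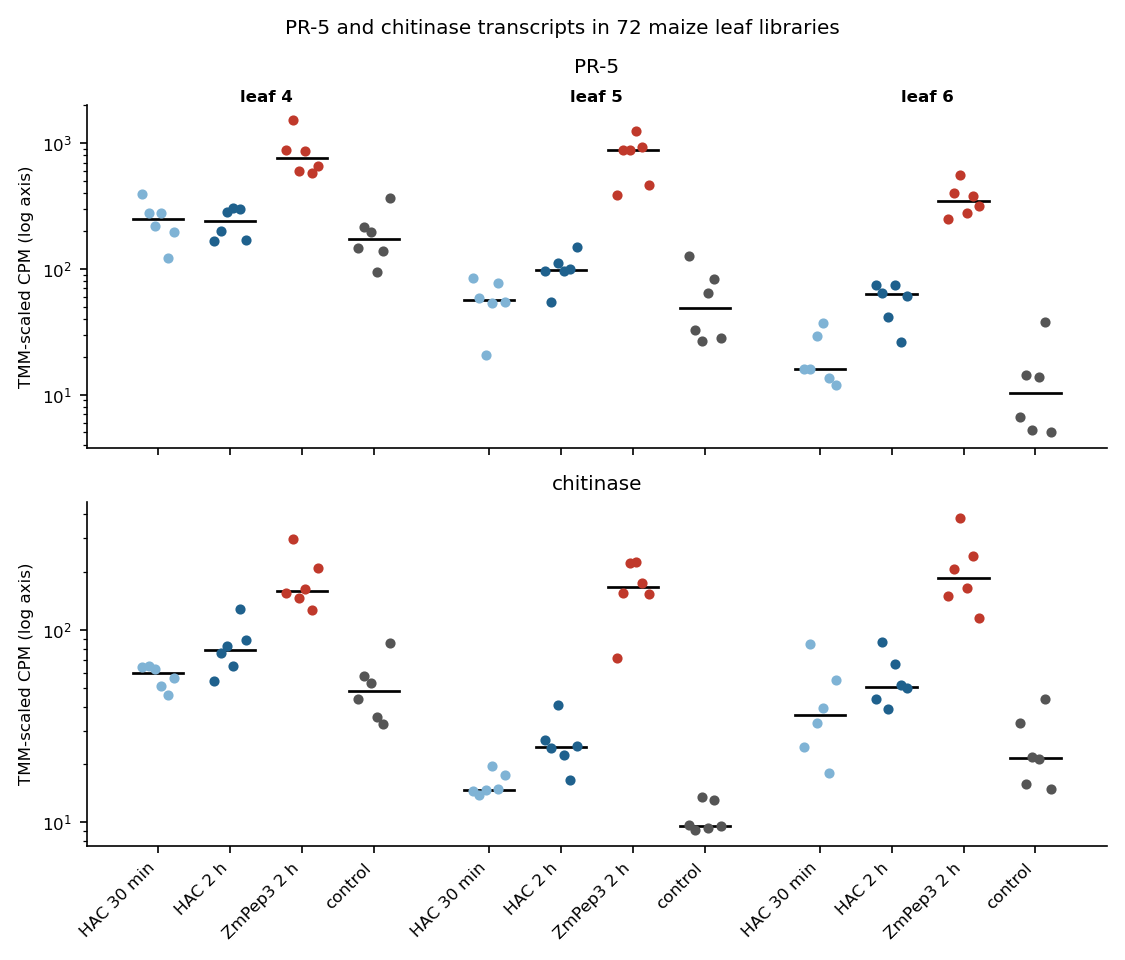
TMM-scaled CPM of PR-5 (upper panel) and chitinase (lower panel) on log axes, with 1 point per library, a line at the group median and 6 libraries per group. The ZmPep3 points lie above every control point of the same leaf for both genes, and the PR-5 controls step down from leaf 4 (median 172 CPM) to leaf 6 (median 10.2 CPM).

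The control leaves set the baseline, and the 2 genes ordered the leaves differently. PR-5 controls ran from 94.8 to 368 CPM with a median of 172 in leaf 4, from 26.6 to 126 with a median of 48.6 in leaf 5, and from 5.00 to 38.2 with a median of 10.2 in leaf 6. The leaf 6 and leaf 4 controls did not overlap, while leaf 5 overlapped both. Against leaf 4, PR-5 was lower in leaf 5 by a log2 change of -1.69 ± 0.39 (SE, adjusted p = 2e-04) and in leaf 6 by -3.81 ± 0.43 (adjusted p = 6.98e-12). Between the immature leaves, leaf 6 was below leaf 5 by -2.12 ± 0.40 (adjusted p = 1.41e-05). Leaf 6 control library 5, at 38.2 CPM, was above the other 5, which lay at 14.4 CPM or less. Without it the leaf 6 differences were -4.43 from leaf 4 and -2.74 from leaf 5.

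Chitinase controls ran from 32.5 to 85.8 CPM with a median of 48.4 in leaf 4, from 9.11 to 13.6 with a median of 9.63 in leaf 5, and from 14.9 to 43.8 with a median of 21.6 in leaf 6. Leaf 5 was lowest, below every library of the other leaves. Chitinase was lower than in leaf 4 by -2.26 ± 0.30 in leaf 5 (adjusted p = 1.36e-09) and by -1.03 ± 0.28 in leaf 6 (adjusted p = 0.000988). Leaf 6 was above leaf 5 by 1.22 ± 0.29 (adjusted p = 0.000357), the opposite sign to PR-5. Such calls were common: 55.8% of all genes tested were called between leaves 5 and 4, 70.5% between leaves 6 and 4, and 45% between leaves 6 and 5. The TMM factors differed by leaf as well, with medians of 1.15 in leaf 4, 0.965 in leaf 5 and 0.890 in leaf 6. Markers of leaf tissue and of the ligule differed between these controls too. In leaf 6 against leaf 4 controls, mean levels were 2.55 against 0.0655 CPM for lg1, 9.37 against 3.29 CPM for lg2, 10462 against 2474 CPM for pep1 and 9425 against 2149 CPM for rbcS, the small subunit of Rubisco. Leaf 5 controls lay between, at 0.243, 5.01, 8961 and 7830 CPM for the same 4 genes. The C4 genes ME1 and C4ppdkZm1 and the light-harvesting gene CAB1 averaged 4021, 7217 and 16842 CPM in leaf 6 controls, 2459, 9156 and 16746 CPM in leaf 5 controls and 1470, 8372 and 10538 CPM in leaf 4 controls. The part of these differences in those of PR-5 and chitinase was not tested. With library size as the only scaling, the median of all genes moved by -0.26 for leaf 5 over leaf 4 and by -0.30 for leaf 6 over leaf 4, and both members kept their signs and calls.

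In leaf 4, PR-5 ran from 585 to 1520 CPM after ZmPep3, with a median of 766, against 94.8 to 368 CPM in controls, with a median of 172. The mean was 854 ± 352 CPM after ZmPep3 and 194 ± 95.7 CPM in controls (SD, n = 6 each). The log2 change was 2.14 ± 0.40 (SE, adjusted p = 9.65e-06), in a comparison where 42.2% of all genes were called. A larger log2 change was seen in 3.82% of genes tested. Library 2 of the treated leaves was the highest at 1520 CPM, and it was also highest for chitinase at 298 CPM. Without it the PR-5 change was 1.89.

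In leaf 5, PR-5 ran from 384 to 1256 CPM after ZmPep3, with a median of 886, against 26.6 to 126 CPM in controls, with a median of 48.6. The change was 3.74 ± 0.43 (adjusted p = 4.65e-11), where 45.4% of genes were called and 1.76% had a larger log2 change. ZmPep3 libraries 1 and 6 were the lowest, at 384 and 467 CPM. The other 4 lay at 883 CPM or more.

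In leaf 6, PR-5 ran from 249 to 558 CPM after ZmPep3, with a median of 348, against 5.00 to 38.2 CPM in controls, with a median of 10.2. The treated and control libraries were again apart, by a wide gap. The change was 4.72 ± 0.45 (adjusted p = 9e-14), where 42.1% of genes were called and 0.783% had a larger log2 change. Without leaf 6 control library 5 the change was 5.33.

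Chitinase in leaf 4 ran from 128 to 298 CPM after ZmPep3, with a median of 160, against 32.5 to 85.8 CPM in controls, with a median of 48.4. The change was 1.84 ± 0.29 (adjusted p = 2.53e-07). In leaf 5 it ran from 71.3 to 227 CPM after ZmPep3, with a median of 167, against 9.11 to 13.6 CPM in controls, with a median of 9.63. The leaf 5 change of 3.97 ± 0.32 (adjusted p = 9.7e-17) was the largest for this gene among the 9 treatment comparisons, and leaf 5 also had its lowest controls. In leaf 6, chitinase ran from 115 to 383 CPM after ZmPep3, with a median of 187, against 14.9 to 43.8 CPM in controls, with a median of 21.6, a change of 3.07 ± 0.30 (adjusted p = 2.43e-13). In leaves 4, 5 and 6, a larger log2 change was seen in 5.01%, 1.55% and 2.82% of genes tested.

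**Figure D2:**
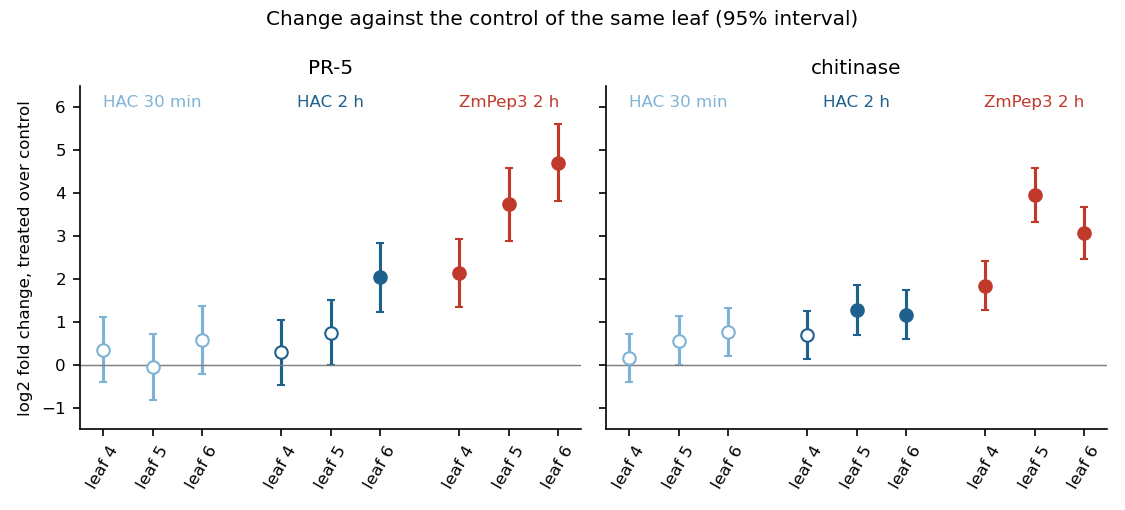
log2 fold change of PR-5 (left) and chitinase (right), treated over control of the same leaf, with 95% intervals from edgeR's quasi-likelihood fit; filled points are called and open points are not. The ZmPep3 changes of PR-5 run from 2.14 in leaf 4 to 4.72 in leaf 6, and those of chitinase are highest in leaf 5, at 3.97.

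The difference of the ZmPep3 effect between leaves was tested as an interaction. For PR-5 the effect in leaf 6 exceeded that in leaf 4 by 2.58 ± 0.55 (SE, adjusted p = 0.000388), where 18.6% of genes were called. Leaf 5 minus leaf 4 gave 1.60 ± 0.54, which missed the threshold (adjusted p = 0.0558, 95% interval 0.52 to 2.69). It was called in 6 of 24 fits that left out 1 library, among them those without leaf 5 control library 1, leaf 4 ZmPep3 library 2, or leaf 5 ZmPep3 library 1 or 6. Leaf 6 minus leaf 5 gave 0.98 (adjusted p = 0.415, 95% interval -0.11 to 2.07), and 1.59 without leaf 6 control library 5. Without that library leaf 6 minus leaf 4 was 3.19.

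For chitinase the ZmPep3 effect in leaf 5 exceeded that in leaf 4 by 2.13 ± 0.40 (adjusted p = 2e-04), where 7.48% of genes were called. The effect in leaf 6 exceeded that in leaf 4 by 1.23 ± 0.40 (adjusted p = 0.0203). This last call was lost without leaf 4 control library 6 or leaf 6 ZmPep3 library 3, with a value of 0.97 in the second case. Leaf 6 minus leaf 5 gave -0.90, which missed the threshold (adjusted p = 0.262, 95% interval -1.69 to -0.10), where 2.07% of genes were called.

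Between leaves that had the same treatment, chitinase was not called different in any pair after ZmPep3, and PR-5 stayed lower in leaf 6. These comparisons between treated leaves were added after the values had been seen. Chitinase after ZmPep3 differed by -0.13 between leaves 5 and 4 (95% interval -0.68 to 0.42), by 0.20 between leaves 6 and 4 (-0.36 to 0.75) and by 0.33 between leaves 6 and 5 (-0.23 to 0.88). None of these was called, in comparisons where 55.3%, 70.4% and 43.5% of genes were. PR-5 after ZmPep3 differed by -0.087 between leaves 5 and 4 (95% interval -0.85 to 0.67), which was not called. It was lower in leaf 6 than in leaf 4, by -1.23 ± 0.39 (adjusted p = 0.00388), and than in leaf 5, by -1.14 ± 0.39 (adjusted p = 0.0126).

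After HAC for 2 h, both genes were called lower in leaf 5 than in leaf 4, as in controls. PR-5 was lower in leaf 5 than in leaf 4 by -1.23 ± 0.39 (adjusted p = 0.00572) and in leaf 6 than in leaf 4 by -2.06 ± 0.40 (adjusted p = 6.43e-06), while leaf 6 against leaf 5 gave -0.83 (adjusted p = 0.0740, 95% interval -1.60 to -0.059). Chitinase was lower in leaf 5 than in leaf 4 by -1.67 ± 0.29 (adjusted p = 1.26e-06) and higher in leaf 6 than in leaf 5 by 1.11 ± 0.28 (adjusted p = 0.000927). Its leaf 6 against leaf 4 difference of -0.55 missed the threshold (adjusted p = 0.0714, 95% interval -1.11 to 0.0054), and was called without leaf 4 HAC library 1 or leaf 6 HAC library 2. Of all genes tested, 54.7%, 70.9% and 44.3% were called in these 3 leaf pairs.

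**Figure D3:**
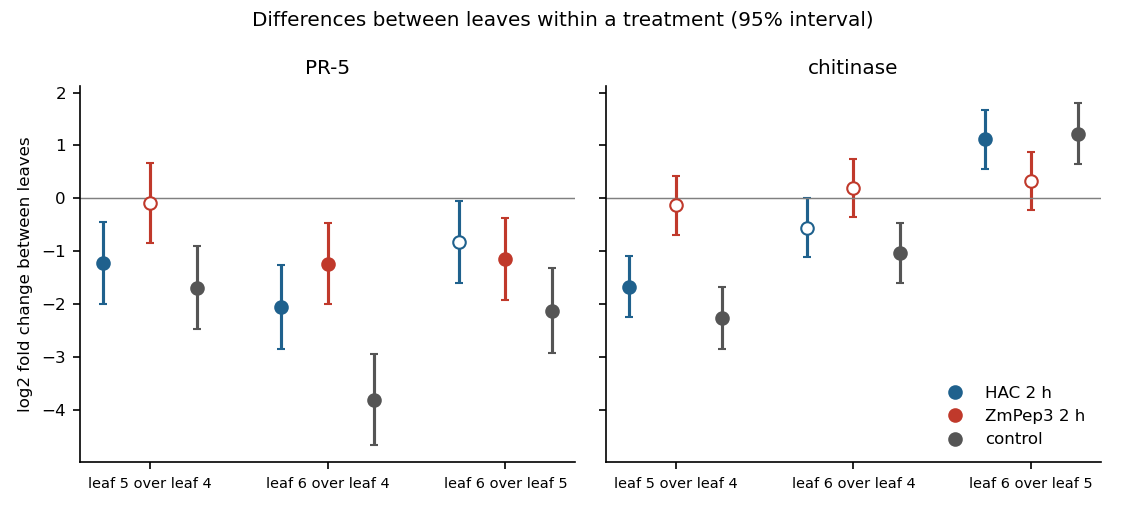
log2 fold change between leaves within HAC for 2 h, ZmPep3 for 2 h and control, for PR-5 (left) and chitinase (right), with 95% intervals; filled points are called and open points are not. For chitinase the 3 ZmPep3 intervals span 0, and for PR-5 leaf 6 lies below leaf 4 in every treatment shown, by -1.23 after ZmPep3 and by -3.81 in controls.

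HAC for 2 h was called for PR-5 in leaf 6 alone. There PR-5 ran from 26.5 to 75.1 CPM after HAC for 2 h, with a median of 62.8, against 5.00 to 38.2 CPM in controls, with a median of 10.2. Of the 6 treated libraries, 5 lay above every control. The change was 2.04 ± 0.40 (adjusted p = 5.96e-05), where 24.9% of genes were called, and 2.66 without leaf 6 control library 5.

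In leaf 5, PR-5 ran from 54.7 to 149 CPM after HAC for 2 h, with a median of 98.4, against 26.6 to 126 CPM in controls, with a median of 48.6. The groups overlapped, and the change of 0.75 ± 0.38 was not called (adjusted p = 0.183, 95% interval -0.016 to 1.52), where 16.9% of genes were. Without leaf 5 control library 1, the highest control at 126 CPM, it was 1.11 and called (adjusted p = 0.0466). In leaf 4, PR-5 ran from 167 to 303 CPM after HAC for 2 h, with a median of 241.5, against 94.8 to 368 CPM in controls, with a median of 172. All treated libraries lay within the control range, and the change was 0.29 (adjusted p = 0.787, 95% interval -0.47 to 1.05), where 1.69% of genes were called.

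The effect of HAC for 2 h on PR-5 was larger in leaf 6 than in leaf 4 by 1.75 ± 0.55 (adjusted p = 0.0254), where 11.3% of genes were called. The call was lost without leaf 4 control library 6, leaf 6 control library 3 or leaf 6 control library 6, and in a fit of only the 4 groups compared (adjusted p = 0.0670). Without leaf 6 control library 5 the difference was 2.37. Leaf 6 minus leaf 5 gave 1.29 (adjusted p = 0.236, 95% interval 0.19 to 2.38) with a call only without leaf 6 control library 5, where it was 1.91. None of 8 alternative fits called it, including the fit without leaf 6 control libraries 5 and 6. Leaf 5 minus leaf 4 gave 0.46 (adjusted p = 0.793, 95% interval -0.62 to 1.54).

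Chitinase after HAC for 2 h was called in both immature leaves. In leaf 5 it ran from 16.5 to 40.8 CPM after HAC, with a median of 24.8, against 9.11 to 13.6 CPM in controls, with a median of 9.63, so the groups did not overlap. The change was 1.28 ± 0.29 (adjusted p = 0.000783), where 16.9% of genes were called. In leaf 6 it ran from 38.8 to 87.0 CPM after HAC, with a median of 50.8, against 14.9 to 43.8 CPM in controls, with a median of 21.6. Of the 6 treated libraries, 5 lay above every control, and the change was 1.17 ± 0.28 (adjusted p = 0.00113).

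In leaf 4, chitinase ran from 54.1 to 129 CPM after HAC for 2 h, with a median of 79.2, against 32.5 to 85.8 CPM in controls, with a median of 48.4. All 6 treated libraries lay above the control median, 2 of them above every control. The change was 0.69 ± 0.28 and was not called (adjusted p = 0.213, 95% interval 0.13 to 1.24), while a two-sided exact permutation test on this gene alone gave an unadjusted p of 0.0325. The chitinase effect of HAC for 2 h was not called different between any pair of leaves. The differences were 0.59 for leaf 5 minus leaf 4 (95% interval -0.20 to 1.39), 0.48 for leaf 6 minus leaf 4 (-0.31 to 1.27) and -0.11 for leaf 6 minus leaf 5 (-0.91 to 0.69), where 2.68%, 11.3% and 1.74% of genes were called.

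HAC for 30 min gave no call for either gene. PR-5 ran from 121 to 397 CPM after HAC for 30 min in leaf 4, with a median of 248, from 20.7 to 85.3 in leaf 5, with a median of 56.8, and from 11.9 to 37.3 in leaf 6, with a median of 16.0. In each leaf these ranges overlapped the control range. The changes were 0.36 ± 0.38 in leaf 4 (adjusted p = 0.713), -0.043 ± 0.38 in leaf 5 (adjusted p = 0.968) and 0.58 ± 0.39 in leaf 6 (adjusted p = 0.415), where 4.38%, 12.9% and 11.7% of genes were called. Their 95% intervals ran from -0.41 to 1.12, from -0.81 to 0.72 and from -0.20 to 1.37. In leaf 6 the change was 1.20 and called without control library 5 (adjusted p = 0.0319). None of 8 alternative fits called it, including the fit without leaf 6 control libraries 5 and 6.

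Chitinase in leaf 5 ran from 13.9 to 19.5 CPM after HAC for 30 min, with a median of 14.8, against 9.11 to 13.6 CPM in controls, with a median of 9.63. All 6 treated libraries lay above every control, and the exact permutation test gave an unadjusted p of 0.00216, the smallest that 6 against 6 allow. The share of all genes so separated was not counted, and 12.9% of genes tested were called in this comparison. The edgeR change of 0.56 ± 0.29 was not called in the fit of all 72 libraries (adjusted p = 0.208) and was called in a fit of only these 2 groups (adjusted p = 0.00738). The spread within both groups was small, with SDs of 2.19 CPM after HAC and 2.02 CPM in controls.

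In leaf 6, chitinase ran from 18.1 to 84.6 CPM after HAC for 30 min, with a median of 36.1, against 14.9 to 43.8 CPM in controls, with a median of 21.6. The change was 0.76 ± 0.28 (adjusted p = 0.0699), and it was called without control library 5 or without HAC library 1 or 5. In leaf 4, chitinase ran from 46.1 to 65.2 CPM after HAC for 30 min, with a median of 59.5, inside the control range of 32.5 to 85.8 CPM, and the change was 0.17 (adjusted p = 0.832, 95% interval -0.39 to 0.72).

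No difference between leaves in the effect of HAC for 30 min was called for either gene. For PR-5 the differences were -0.40 for leaf 5 minus leaf 4 (95% interval -1.48 to 0.68), 0.23 for leaf 6 minus leaf 4 (-0.87 to 1.32) and 0.62 for leaf 6 minus leaf 5 (-0.47 to 1.72). For chitinase they were 0.40 (-0.40 to 1.20), 0.59 (-0.20 to 1.38) and 0.19 (-0.61 to 1.00) for the same pairs. Of all genes tested, 3.16%, 5.25% and 0.36% were called.

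Between the exposure times, PR-5 in leaf 6 was higher after HAC for 2 h than after HAC for 30 min by 1.46 ± 0.39 (adjusted p = 0.00389), where 20.6% of genes were called. The leaf 5 difference was 0.80 (adjusted p = 0.167, 95% interval 0.026 to 1.57) and the leaf 4 difference -0.063 (adjusted p = 0.964, 95% interval -0.83 to 0.70). Chitinase differed between the times by 0.52 in leaf 4, 0.71 in leaf 5 and 0.41 in leaf 6, with 95% intervals of -0.037 to 1.08, 0.14 to 1.28 and -0.15 to 0.97, and none was called in the fit of all 72 libraries. In leaves 4 and 5, 3.6% and 15.4% of genes were called between the times.

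At 2 h, ZmPep3 left both transcripts higher than HAC did in every leaf. PR-5 was higher after ZmPep3 than after HAC by 1.85 ± 0.39 in leaf 4 (adjusted p = 0.000149), 2.99 ± 0.41 in leaf 5 (adjusted p = 2.77e-08) and 2.67 ± 0.41 in leaf 6 (adjusted p = 3.9e-07), and the ranges did not overlap in any leaf. Chitinase was higher by 1.15 ± 0.28 in leaf 4 (adjusted p = 0.000859), 2.69 ± 0.30 in leaf 5 (adjusted p = 3.93e-11) and 1.90 ± 0.29 in leaf 6 (adjusted p = 3.03e-07), and its ranges overlapped in leaf 4 only. Of all genes tested, 31.2%, 26.2% and 19.3% were called between the agents in leaves 4, 5 and 6.

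Ranked by mean level, PR-5 was highest in leaf 4 after ZmPep3 (854 ± 352 CPM) and leaf 5 after ZmPep3 (803 ± 324 CPM), followed by leaf 6 after ZmPep3 (364 ± 112 CPM), the 3 leaf 4 groups without ZmPep3 (194 to 248 CPM), leaf 5 after HAC for 2 h (101 ± 30.4 CPM) and 3 groups near 60 CPM, leaf 5 control, leaf 5 after HAC for 30 min and leaf 6 after HAC for 2 h. Leaf 6 after HAC for 30 min (20.7 ± 10.2 CPM) and leaf 6 control (13.9 ± 12.6 CPM) were lowest (SD, n = 6). Every neighbouring pair in this order overlapped. PR-5 in leaf 6 after HAC for 2 h, at 57.1 ± 19.3 CPM, therefore lay near the leaf 5 control mean of 60.1 ± 39.5 CPM.

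Chitinase was highest in the 3 ZmPep3 groups, at 211 ± 95.5 CPM in leaf 6, 184 ± 62.6 CPM in leaf 4 and 168 ± 57.1 CPM in leaf 5. Next came leaf 4 after HAC for 2 h at 82.6 ± 25.9 CPM. The 2 lowest groups, leaf 5 after HAC for 30 min at 15.9 ± 2.19 CPM and leaf 5 control at 10.7 ± 2.02 CPM, were the only neighbours in its order that did not overlap.

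The deposited FPKM values, which are per transcript length, allow the levels of the 2 genes to be set against each other in the same library. In leaves 4 and 5, PR-5 was above chitinase in every library of every group. The median ratio of PR-5 to chitinase FPKM in leaf 4 was 5.36 after HAC for 30 min, 3.95 after HAC for 2 h, 6.64 after ZmPep3 and 5.17 in controls. In leaf 5 it was 5.05, 5.42, 7.34 and 6.89 in the same order.

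Leaf 6 differed: the median ratio was 0.97 after HAC for 30 min, 1.51 after HAC for 2 h, 2.30 after ZmPep3 and 0.68 in controls. PR-5 was the higher of the pair in 3 of 6 libraries after HAC for 30 min, 5 of 6 after HAC for 2 h, 6 of 6 after ZmPep3 and 2 of 6 controls. The ratios ran from 2.00 to 3.73 after ZmPep3 and from 0.28 to 1.26 in controls, without overlap. No test was made of this ratio.

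**Figure D4:**
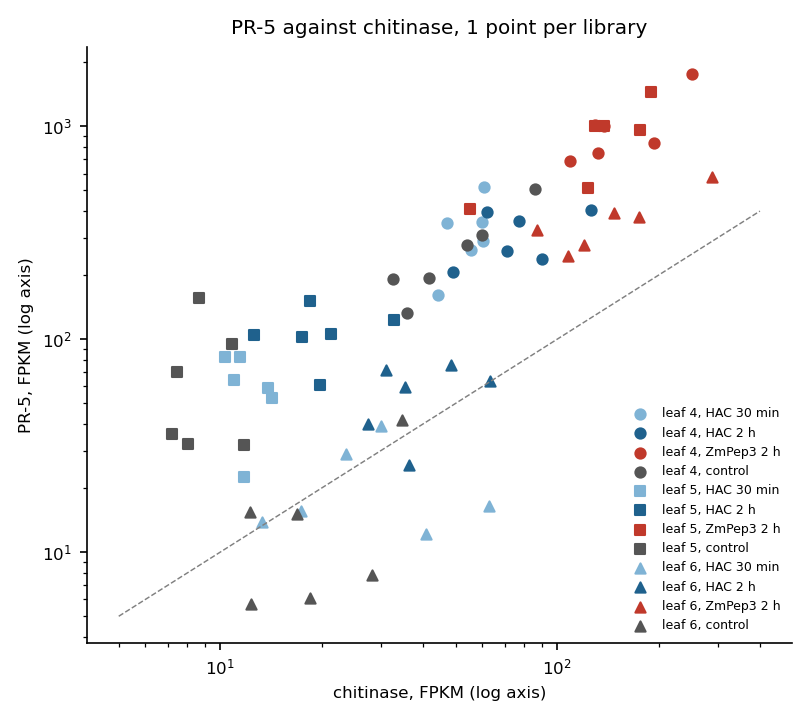
Deposited FPKM of PR-5 against chitinase on log axes, with 1 point per library; colour gives the treatment, marker shape the leaf, and the dashed line equal FPKM. Circles (leaf 4) and squares (leaf 5) lie above the line in all libraries, while leaf 6 controls lie on both sides of it, with ratios of 0.28 to 1.26.

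Over the 6 libraries of a group, PR-5 and chitinase on log2 CPM had a positive Pearson correlation in 9 of 12 groups. The values ran from -0.08 in leaf 5 controls to 0.94 in leaf 4 controls. None of the 12 passed Benjamini-Hochberg adjustment, and 3 had an unadjusted permutation p under 0.05. In leaf 4 controls Pearson's r was 0.94 (exact permutation p = 0.00972, adjusted 0.0667) and Spearman's rho 0.94 (exact permutation p = 0.0167, adjusted 0.2), and r was 0.93 without the 2 libraries farthest from the median of PR-5. Without those 2 libraries of each group, 6 groups had a positive r, 5 of which were among the 9. It turned negative in leaf 6 controls (0.53 with all 6 libraries, -0.64 without), in leaf 4 after ZmPep3 (0.80 and -0.15), in leaf 4 after HAC for 30 min (0.73 and -0.011) and in leaf 6 after HAC for 2 h (0.33 and -0.20). In leaves 5 and 6 after ZmPep3 it was 0.84 and 0.86 with all libraries, and 0.54 and 0.67 without the 2.

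Other genes named as chitinases or as pathogenesis-related or antimicrobial proteins were taken by name from the reference table, which gave 7 tested genes by the terms chosen at the start and 3 more (prp2, geb1 and sip1) by added names. By symbol or synonym the thaumatin-like terms matched PR-5 alone. Members of that family listed under other names would not be found this way, and may be among the genes named below. After ZmPep3, 7 of these 10 were called higher in leaf 4, 6 in leaf 5 and 5 in leaf 6, and none lower, with median log2 changes of 1.85, 1.66 and 1.36 beside -0.048, -0.061 and -0.025 over all genes tested. Of all genes tested, 20.3%, 22.4% and 23.3% were called higher. With 1 library left out, an alternative chosen after the values were seen, the listed genes called higher numbered 6 to 7 in leaf 4, 5 to 6 in leaf 5 and 5 to 6 in leaf 6, and at most 1 was called lower, in leaf 4. After HAC for 30 min the numbers called higher were 1, 0 and 1 in leaves 4, 5 and 6, and after HAC for 2 h they were 0, 1 and 0, with none lower. The shares of all genes called higher were 2.53%, 8.15% and 8.49% after HAC for 30 min, and 0.923%, 9.59% and 13.9% after HAC for 2 h. Over the 9 treatment comparisons, higher calls made up 48.0% to 72.5% of all calls with TMM and 27.1% to 45.1% with library size as the only scaling.

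Among the other chitinase genes, chiI (100274400) was called higher after ZmPep3 in all 3 leaves, and differences between the chitinase genes were not tested. After ZmPep3 it rose by 2.13 in leaf 4, 4.50 in leaf 5 and 4.32 in leaf 6 (adjusted p = 2.46e-07, 3.98e-16 and 1.28e-15). It averaged 356, 271 and 203 CPM after ZmPep3 in leaves 4, 5 and 6 and 81.4, 12.0 and 10.2 CPM in controls. In leaf 5 it rose after HAC for 2 h, by 1.64 (adjusted p = 0.000163). In leaf 6 it was called after HAC for 30 min, at 1.18 (adjusted p = 0.00929, and 0.0731 in a fit of only those groups), and not after HAC for 2 h, at 0.65 (adjusted p = 0.151).

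chiA (100283098), a further chitinase gene, was low in leaf 4 and rose there by 3.89 after ZmPep3 (adjusted p = 1.76e-07), to 3.01 CPM after ZmPep3 against 0.199 CPM in controls. It rose by 2.16 in leaf 5 and 1.43 in leaf 6 (adjusted p = 3.96e-05 and 0.00375). The order of its changes over the leaves was thus the reverse of that of PR-5, and the difference between the genes was not tested. Its leaf 4 change after HAC for 30 min, 2.18 (adjusted p = 0.0356), was at group means of 0.917 CPM after HAC and 0.199 CPM in controls, and was not called in a fit of only those groups (adjusted p = 0.0956) or in 7 of 12 fits that left out 1 library.

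geb1 (100037765), also listed as pr6, rose after ZmPep3 by 4.74 in leaf 5 and 3.07 in leaf 6, with adjusted p-values of 2.41e-08 and 4.01e-05, and the leaf 6 change was 4.29 without control library 5. In leaf 4 it ran from 94.6 to 347 CPM after ZmPep3, with a median of 139, against 9.05 to 215 CPM in controls, with a median of 26.5. The groups overlapped, and control library 6 was the high one. The leaf 4 change of 1.58 (adjusted p = 0.0223) was not called in a fit of only those groups (1.57, adjusted p = 0.0986) or without control library 1, 3, 4 or 5 or ZmPep3 library 4, and was 2.65 without control library 6.

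sip1 (542299), also listed as Zlp, rose after ZmPep3 by 2.41, 2.85 and 2.00 in leaves 4, 5 and 6. Its adjusted p-values were 3.45e-11, 6.48e-14 and 1.44e-09. PR10 (100284195), of a family related to ribonucleases, rose by 0.75, 1.15 and 1.02, with adjusted p-values of 0.00567, 3.81e-05 and 0.000245.

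PR-1 (542352) is of the family often used as a marker of salicylate signalling. In leaf 4, PR-1 ran from 7.76 to 466 CPM after ZmPep3, with a median of 23.5, against 3.13 to 13.7 CPM in controls, with a median of 9.18. Its change of 3.41 (adjusted p = 0.00639) rested on ZmPep3 library 2, the one at 466 CPM. Without that library it was 1.05 and not called (adjusted p = 0.394). In leaf 5, PR-1 ran from 0.385 to 1.86 CPM after ZmPep3, with a median of 0.992, against 0.0331 to 2.52 CPM in controls, with a median of 0.583, and the change of 0.29 was not called (adjusted p = 0.880). In leaf 6 it ran from 0.152 to 24.2 CPM after ZmPep3, with a median of 1.37, against 0 to 26.1 CPM in controls, with a median of 0.245. The leaf 6 change was 0.24 and not called (adjusted p = 0.879). Without control library 5, the one at 26.1 CPM, it was 3.70 and called (adjusted p = 0.0164), and without ZmPep3 library 3 it was -1.49.

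**Figure D5:**
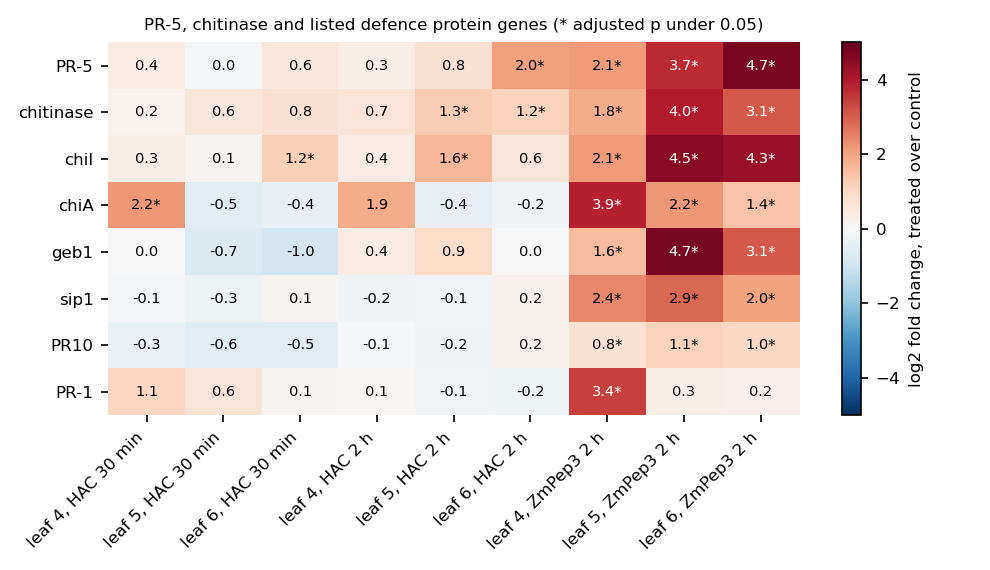
log2 fold change, treated over control of the same leaf, for PR-5, chitinase and 6 listed genes (rows) in the 9 treatment comparisons (columns); an asterisk marks an adjusted p under 0.05 in edgeR's quasi-likelihood test. Most marked cells are in the ZmPep3 columns at the right, where the largest values are 4.74 (geb1, leaf 5) and 4.72 (PR-5, leaf 6).

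Likeness of pattern was measured as Pearson's r of the 12 group means of log2 CPM, over 18425 tested genes with a mean of at least 5 CPM in at least 1 group. The points share libraries and treatments, so r is a description. r was above 0.9 for 526 genes with PR-5 and 134 with chitinase, and the 2 members had r = 0.78 with each other. Among 133 genes with a symbol other than a locus number, the most like PR-5 were opr1, an oxophytodienoate reductase gene (r = 0.94), CNR5 (0.93), DAO (0.91), gene 100281135 (0.90) and AO2 (0.89). The most like chitinase were lox9, a lipoxygenase gene (r = 0.95), gene 100281135 (0.88), sfp2 (0.86), AO2 (0.86) and CNR2 (0.84). opr1 averaged 145, 78.0 and 51.5 CPM after ZmPep3 in leaves 4, 5 and 6, and 43.1, 12.3 and 6.17 CPM in the controls of those leaves, and so ordered the leaves as PR-5 did in controls. lox9 averaged 135, 87.4 and 96.6 CPM after ZmPep3 and 62.8, 17.7 and 21.1 CPM in controls, with leaf 5 lowest in both, as the chitinase means were. The chitinase medians after ZmPep3 were instead lowest in leaf 4 (160, 167 and 187 CPM in leaves 4, 5 and 6), and no leaf pair was called there. Both genes were picked for likeness over these group means, so a shared order is no separate result.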

How the data were processed

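Total RNA of 72 leaf samples was sequenced as DNBSEQ libraries, per the labels' protocols. The submitters' processing notes name Bowtie2, RSEM and the build B73 RefGen_v4, while tool versions are not given in the sources used here. One deposited table holds RSEM's expected counts, which the authors left unscaled. The other deposited table holds FPKM, which relates those counts to transcript length and library size. Of 43547 entries, 11312 were blank in every sample. Names came from a RefSeq table of another assembly, which held 30403 of the 32235 genes, so no coordinates are given, and no sequences were used here.

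Expected counts were rounded and tested in R 4.3.3 with edgeR 4.0.16: filterByExpr, TMM, and the robust quasi-likelihood fit with 1 coefficient per group over 72 libraries (limma 3.58.1 for support). Genes are called at a Benjamini-Hochberg adjusted p under 0.05 over 25558 genes within a comparison. SEs are the log2 change divided by the root of F. There were 27 comparisons plus 6 between treated leaves that were added later. The steps were tested on simulated data. Alternatives were DESeq2 1.42.0 (size factors and Wald test), other low-count filters, library size only, a replicate block, fits of only the groups compared, libraries left out, and exact permutation tests. Fits that left out 1 library kept the TMM factors and the trended dispersions (edgeR's estimates of spread by level) of the full fit. Same-numbered libraries deviated together (correlation above 0.1) in 23 of 396 pairs, with a median of 0.009. Differently numbered libraries were not counted beside them, so this check cannot decide whether numbers mark pairs. The labels state no pairing, and numbers were not treated as pairs.

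The members and lists were chosen with earlier results of these data known. Lists were matched on symbols and synonyms, since the table has no descriptions, and the terms for glucanases and salicylate-linked genes matched none. Genes of these kinds under other names may still be among those tested, including those named here. Genes named from a list are its called genes with the smallest adjusted p, up to 4, at a mean of at least 5 CPM in a group, and pattern likeness names the 5 highest r. The planned closest relative by protein was not analysed here.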

Additional observations from a re-analysis of the deposited data

Results flagged for a closer look

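PR-5 in library 5 of the leaf 6 controls stood apart from the other 5 libraries of its group, at 38.2 CPM against 5.00 to 14.4 CPM. The same library had the highest chitinase of its group, at 43.8 CPM, and one of the lowest median correlations with its group (0.947 on log2 CPM). PR-5 in library 2 of leaf 4 after ZmPep3 stood apart as well, at 1520 CPM against 585 to 884 CPM in the other 5. Among 24 gene and group combinations checked with Dixon's criterion on CPM, these 2 were marked. Chance marks about 1 in 20 where values are normally distributed, which was not tested for CPM. The check was not made on log2 CPM.

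The effect of a treatment differed between leaves by the interaction test in 4 cases. For PR-5 the effect of HAC for 2 h was larger in leaf 6 than in leaf 4 by 1.75 on the log2 scale, and that of ZmPep3 by 2.58. Of all genes tested, 11.3% and 18.6% were called in these comparisons. The HAC call held in 21 of 24 fits that left out 1 library, and was lost in a fit of only the groups compared. For chitinase the effect of ZmPep3 exceeded that in leaf 4 by 2.13 in leaf 5 and by 1.23 in leaf 6. In these comparisons 7.48% and 18.6% of all genes were called. The chitinase call of leaf 6 minus leaf 4 held in 22 of 24 fits that left out 1 library.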

How the results depend on the processing

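Both members kept the direction and call of their ZmPep3 changes in the 3 leaves, and of the HAC 2 h changes called in leaf 5 or 6, under all alternatives run and with each library left out. The replicate block changed no call of either member (PR-5 in leaf 6: 2.10 for HAC 2 h and 4.79 for ZmPep3). Library size only, fits without pairs of libraries, leaving out libraries for listed genes and the comparisons between treated leaves were chosen after seeing the data. The ZmPep3 effect on PR-5 in leaf 5 minus leaf 4 (1.60) became called with a filter on mean CPM of at least 1 (1.60, adjusted p = 0.0498), library size only (1.76), DESeq2's Wald test (1.62) and without leaf 5 ZmPep3 libraries 1 and 6 (1.91). In fits of only the groups compared, the HAC 2 h effect on PR-5 in leaf 6 minus leaf 4 lost its call (1.75), while calls were gained for chitinase in leaf 5 after HAC 30 min (0.56) and between HAC times (0.72), and after HAC 2 h for chitinase in leaf 6 over leaf 4 (-0.57) and PR-5 in leaf 6 over leaf 5 (-0.86); the last pair was also called with library size only (-0.97 and -0.94). The exact permutation test, unadjusted, passed for chitinase after HAC 30 min in leaf 5 (0.57) and after HAC 2 h in leaf 4 (0.71). Signs of uncalled values turned for PR-5 in leaf 5 after HAC 30 min (0.084 by mean log2 CPM), chitinase after ZmPep3 in leaf 6 over leaf 4 (-0.040, library size only), PR-5 and chitinase after ZmPep3 in leaf 5 over leaf 4 (0.22 and 0.094, without ZmPep3 libraries 1 and 6), chitinase HAC 2 h effect in leaf 6 minus leaf 5 (0.015, without leaf 6 control libraries 5 and 6) and PR-5 HAC 30 min effect in leaf 6 minus leaf 4 (-0.018, without leaf 4 HAC libraries 5 and 6). The causes were not tested.

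With 1 library left out, ranges over a call or a sign were, for PR-5, 1.32 to 1.96 (ZmPep3 effect, leaf 5 minus leaf 4), -0.059 to 0.84 (HAC 30 min effect, leaf 6 minus leaf 4), 1.47 to 2.37 (HAC 2 h effect, leaf 6 minus leaf 4), 0.93 to 1.91 (leaf 6 minus leaf 5), -0.20 to 0.31 (HAC 30 min, leaf 5), 0.33 to 1.20 (leaf 6), 0.60 to 1.11 (HAC 2 h, leaf 5), -0.20 to 0.12 (HAC times, leaf 4), -0.96 to -0.68 (HAC 2 h, leaf 6 over leaf 5) and -0.26 to 0.16 (ZmPep3, leaf 5 over leaf 4). For chitinase they were 0.97 to 1.46 (ZmPep3 effect, leaf 6 minus leaf 4), 0.44 to 0.99 (HAC 30 min, leaf 6), -0.28 to 0.12 (HAC 2 h effect, leaf 6 minus leaf 5), -0.13 to 0.42 (HAC 30 min effect, leaf 6 minus leaf 5), -0.72 to -0.38 (HAC 2 h, leaf 6 over leaf 4), 0.54 to 0.81 (HAC times, leaf 5), and -0.23 to 0.063 and -0.059 to 0.39 (ZmPep3, leaves 5 and 6 over leaf 4).

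Counts of called genes moved by over 1.5 times for leaf 4 HAC 2 h (708 by DESeq2 and 82 in its own groups, against 431), for effect differences of leaf 6 minus leaf 5 with HAC 30 min (205 and 16, against 92), HAC 2 h (706 and 244, against 445) and ZmPep3 (802 and 335, against 529), and with library size only for leaf 6 HAC 30 min (4558 against 2990) and ZmPep3 leaf 5 minus leaf 4 (3026 against 1911). Without leaf 6 control libraries 5 and 6 the leaf 6 minus leaf 5 counts were 51 for HAC 30 min and 277 for HAC 2 h. Library size only moved the median of all genes by -0.41 to 0.15. Genes with r above 0.9 over the 72 libraries numbered 51 for PR-5 and 11 for chitinase, and by Spearman's rho 485 and 175. PR-1 after ZmPep3 ran from -0.026 to 1.13 in leaf 5 and from -1.49 to 3.70 in leaf 6 with 1 library left out, and in leaf 6 was 3.52 and called without control libraries 5 and 6. Depth limits neither member, at 149 counts or more, but it limits listed genes under 1 CPM.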

Other observations

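Where any name in the symbol or synonym field was accepted, 2034 genes could be named for likeness of pattern over the 12 group means, a choice made after the values were seen. Those most like PR-5 were ZAR1 (r = 0.98), PDC, a pyruvate decarboxylase gene (0.97), AR4 (0.97), Myrosinase (0.97) and ccoaomt1, a caffeoyl-CoA methyltransferase gene (0.97). Those most like chitinase were lox9 (0.95), NAC61 (0.94), MYB112 (0.94), SEC14p (0.92) and KNR6 (0.92). PDC averaged 425, 271 and 251 CPM after ZmPep3 in leaves 4, 5 and 6, and 223, 87.8 and 37.2 CPM in controls. NAC61 averaged 70.1, 60.4 and 83.0 CPM after ZmPep3, and 16.5, 6.36 and 11.8 CPM in controls. Like chitinase it was lowest in leaf 5 in both, by these means, while the chitinase medians after ZmPep3 were lowest in leaf 4. The genes were picked for likeness over such means, so a shared order is no separate result.

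The genes on either side of each member in the reference table's assembly had these changes after ZmPep3. LOC103640644 and LOC103640664, beside PR-5, had log2 changes of 2.08, 2.53 and 0.12 and of 0.13, -0.072 and -0.20 in leaves 4, 5 and 6, and none was called. LOC606466 and LOC100384626, on either side of chitinase, had changes of 0.52, 0.63 and 0.57, all called, and of -1.32, -0.54 and 0.0084, of which the first 2 were called.

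The coefficient of variation of chitinase over the 6 libraries of a group was 13.8% in leaf 5 after HAC for 30 min and 18.8% in leaf 5 controls, and 13.3% in leaf 4 after HAC for 30 min. These were the lowest values of chitinase, which reached 57.1% in leaf 6 after HAC for 30 min. PR-5 ran from 27.3% in leaf 4 after HAC for 2 h to 90.9% in leaf 6 controls.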
